A study of Danio rerio with 12 samples.

Results

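The microRNAs (miRNAs) miR-130, miR-301 and miR-454 form 1 seed family, and its zebrafish members were described in small RNA libraries of whole embryos. The members were the rows of the deposited count tables whose name, less any copy number and the star that marks the minor arm, was mir-130a, mir-130b, mir-130c, mir-301a, mir-301b, mir-301c, mir-454a or mir-454b, written miR-130a and so on from here. These 8 names gave 22 of the 699 miRNA rows and, with near-equal copies counted once, 16 arms of 464 miRNA features. All 16 arms were detected in all 12 libraries and passed the filter on low counts, which left 410 features for testing. The lowest count of any family arm in any library was 17, for miR-454a in the second 36 hpf DMSO library.

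The embryos were of the TL wild type strain and were sampled at 36 or 60 hours post fertilisation (hpf) after exposure to TCDD, a dioxin and a strong ligand of the aryl hydrocarbon receptor, or to the solvent DMSO. The 4 groups (36 hpf DMSO, 36 hpf TCDD, 60 hpf DMSO and 60 hpf TCDD) held 3 libraries each, and the series title states the question as what a short TCDD exposure does to miRNA expression. Neither the dose nor the length of exposure is in the labels used here, and no label says whether libraries of a group came from separate clutches or pools. The p-values therefore measure only the spread between these samples.

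Depth ranged 9.16-fold, from 459634 to 4210840 miRNA counts per library, and both ends were TCDD libraries numbered 3 (36 hpf the shallowest, 60 hpf the deepest). Of 12 listed tissue markers all were found, and each was detected in 12 libraries except the erythroid miR-144, which was detected in 11. The muscle miR-206 lay between 14551 and 53930 CPM (counts scaled to a common library size), the epidermal miR-203b between 36373 and 86240 CPM and the liver miR-122 between 13.1 and 1069 CPM. Since the RNA came from whole embryos, fewer cells of a type and less miRNA per cell cannot be told apart.

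A miRNA finds its targets mainly through the seed, a short stretch near its 5′ end. Members of a seed family can therefore repress overlapping sets of messenger RNAs, and the summed level of the family matters beside that of each member. In human cells, miR-130a is known from endothelium, where it represses the growth-restraining homeobox genes GAX and HOXA5. Human miR-301a lies in an intron of SKA2 with miR-454, and human miR-130b and miR-301b are neighbours too. A hairpin precursor yields a pair of strands: one arm is usually loaded into Argonaute and kept, and the other, the star or minor arm, is usually degraded.

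The zebrafish hairpins also lie in groups. In the RefSeq annotation of the GRCz12tu assembly, 10 of the 11 hairpin names in the tables were found, and they lay in 3 neighbourhoods with gaps of at most 20 kb between hairpins. The first held miR-130c-1 and miR-301c. The second held miR-454a, miR-301a and miR-130a-1. The third held miR-130c-2, miR-301b, miR-454b and miR-130b. The names miR-130a, miR-130c and miR-301a had 2 hairpin rows per arm, whose totals differed little (the lower was at least 98.9% of the higher in every set). The tables thus do not separate the miR-130c hairpin beside miR-301c from the one beside miR-130b. The paralogs are also alike in sequence, and reads could be shared between them, since no source used here states the counting rule.

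The family held some of the most abundant features of these libraries, and its summed share was not ranked against other families. It took 15.01%, 15.8% and 14.0% of all miRNA counts in the 36 hpf DMSO libraries and 11.7%, 17.3% and 20.5% in the 36 hpf TCDD libraries. At 60 hpf it took 9.68%, 11.4% and 12.6% in DMSO and 10.9%, 15.02% and 12.5% in TCDD libraries. The mean share was 14.9% ± 0.929 (SD, n = 3) at 36 hpf and 11.2% ± 1.45 at 60 hpf in DMSO embryos, without overlap between the libraries. In TCDD embryos it was 16.5% ± 4.47 and 12.8% ± 2.09, and the libraries overlapped. That overlap depended on the scale. With the family summed after scaling by TMM factors, the TCDD libraries held 124652, 201947 and 233089 CPM at 36 hpf. At 60 hpf they held 89686, 122219 and 100202 CPM, narrowly without overlap. The DMSO libraries did not overlap on either scale. At 60 hpf the mean share was higher after TCDD than after DMSO, but the mean summed level was lower (104036 against 112909 CPM). The 8 major arms made up 82.5% to 93.4% of the family's counts, and miR-130b, miR-130c and miR-301c together 75.2% to 86.1%.

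Levels are given as CPM after scaling by TMM factors. All mature arms are of nearly the same length, so CPM values of different arms were set side by side without a length correction, but unequal capture of different sequences by the library kit was not measured. miR-130b was the most abundant member, with a mean of 54768 CPM over the 12 libraries, and ranked 3rd of the 410 features. miR-130c followed at 31403 CPM (8th) and miR-301c at 29320 CPM (10th). The minor arm miR-130b* came next with 11912 CPM (23rd), above the major arms miR-301a (7661 CPM, 32nd), miR-130a (1223 CPM, 99th), miR-301b (1052 CPM, 102nd), miR-454b (728 CPM, 117th) and miR-454a (251 CPM, 171st). By mean the rarest arm was miR-301a*, at 74.1 CPM, but by median miR-454a was lower (66.6 against 76.2 CPM). The median of miR-454b was 173 CPM, also far below its mean.

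Some neighbours in this order were apart in every library and others were not. miR-130b exceeded miR-130c in 12 of 12 libraries, miR-301c exceeded miR-301a in 12 of 12, and miR-301a exceeded miR-130a in 12 of 12. miR-130c exceeded miR-301c in 7 of 12, and miR-130a exceeded miR-301b in 6 of 12, so their order differed between libraries. In DMSO embryos the order of the means turned with time. At 36 hpf miR-130a averaged 1231 CPM against 1629 CPM for miR-301b, and at 60 hpf 1357 against 664 CPM. For miR-130c against miR-301c the means were 35734 and 40729 CPM, then 34885 and 19144 CPM. In TCDD embryos the means of miR-130c and miR-301c were 37330 and 38727 CPM, then 17664 and 18678 CPM, but the libraries were split. miR-130c was the higher in 36 hpf TCDD replicates 1 and 2 and in 60 hpf TCDD replicate 2. In 60 hpf TCDD replicate 3 the levels were 4339 and 19886 CPM. These differences were not tested. miR-301b exceeded miR-454b in 9 and miR-454b exceeded miR-454a in 10 of 12.

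**Figure D1:**
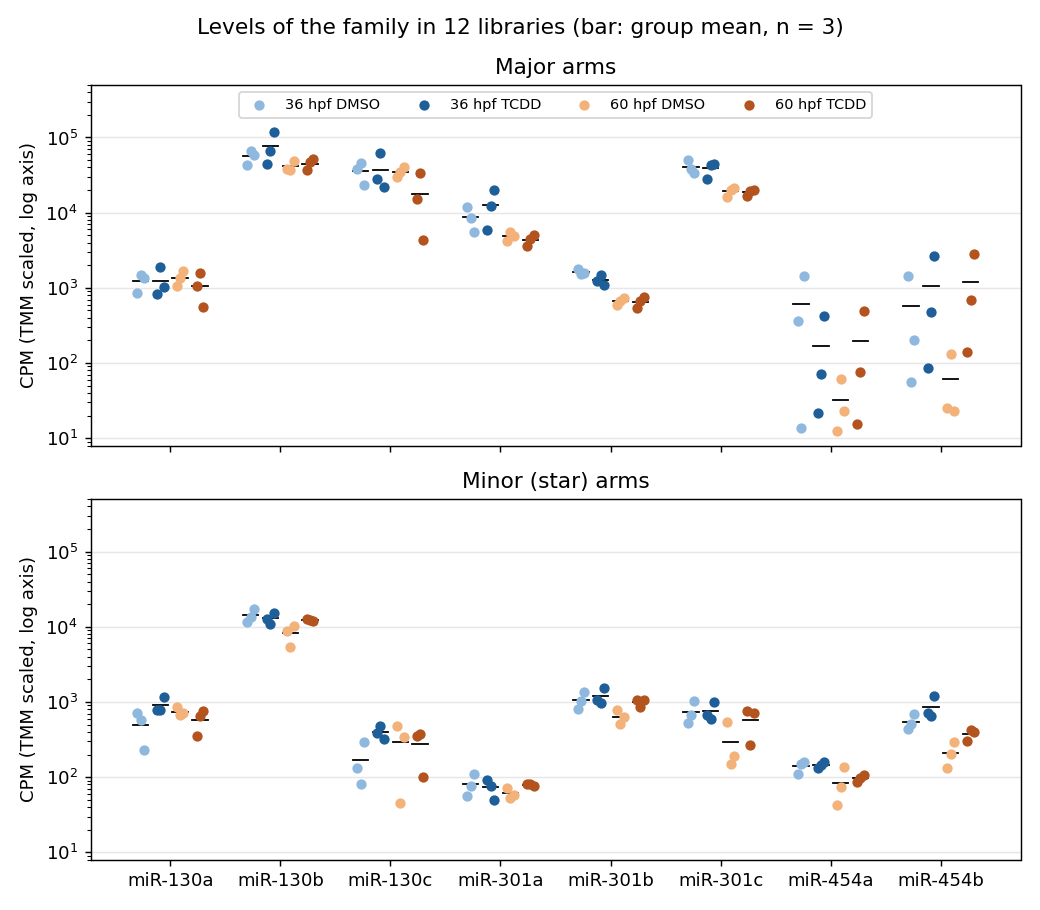
Levels of the 8 major arms (top) and 8 minor arms (bottom) in CPM on a log axis. Each point is 1 library, coloured by group, and bars are means of 3 libraries; miR-130b, miR-130c and miR-301c lie highest, the miR-454 major arms spread widest within groups, and the miR-301b and miR-301c points at 60 hpf lie below all points at 36 hpf.

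Between 36 and 60 hpf, 2 of the miR-301 members, miR-301b and miR-301c, fell in both DMSO and TCDD embryos. In DMSO embryos miR-301b, miR-301c and the minor arm miR-454b* fell and no family arm rose. In TCDD embryos the same 3 fell, and miR-301a with them, in a model without a term for replicate number. The edgeR adjusted p of miR-301a was 0.0539 with the number as a block and 0.0255 with number terms in the TCDD libraries alone. The 3 falling arms in DMSO embryos were 3 of 16 (18.75%). Of all 410 features, 5.61% were called lower in this comparison, 12.7% higher and 18.3% in either direction. A call is an adjusted p under 0.05 in edgeR's quasi-likelihood test, with Benjamini-Hochberg adjustment over all 410. The log2 fold change was below 0 for 13 of the 16 arms, against 45.6% of all features, and its median was -0.77 over the family and 0.08 over all features. Without adjustment, 7 of the 16 had a p under 0.05, against 30.2% of all features.

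miR-301b was the steadiest member. It measured 1771, 1541 and 1577 CPM in the 36 hpf DMSO libraries and 592, 678 and 723 CPM in the 60 hpf DMSO libraries. In TCDD embryos it measured 1227, 1464 and 1090 CPM at 36 hpf and 541, 665 and 761 CPM at 60 hpf. Every 60 hpf library was below every 36 hpf library, in either treatment. The log2 fold change of miR-301b from 36 to 60 hpf was -1.29 (SE 0.25; edgeR adjusted p = 0.00461) in DMSO embryos and -0.94 (SE 0.25; edgeR adjusted p = 0.0197) in TCDD embryos. The call in TCDD embryos was lost without 36 hpf TCDD replicate 2, 60 hpf TCDD replicate 1 or 60 hpf TCDD replicate 2 (adjusted p = 0.0694, 0.0949 and 0.0617). Its pooled SD within groups was 0.19 on the log2 scale, 405th of 410 from the widest.

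miR-301c, the most abundant of the miR-301 members (means of 29320 against 1052 CPM for miR-301b), also fell. It measured 50704, 38262 and 33222 CPM in the 36 hpf DMSO libraries and 16375, 19905 and 21154 CPM at 60 hpf. The TCDD libraries held 28006, 43198 and 44976 CPM at 36 hpf and 16870, 19277 and 19886 CPM at 60 hpf. Again no 60 hpf library reached the level of a 36 hpf library. The log2 fold change of miR-301c was -1.09 (SE 0.26; edgeR adjusted p = 0.0154) in DMSO embryos, where it missed the threshold without 60 hpf DMSO replicate 1 (adjusted p = 0.0692). In TCDD embryos it was -1.05 (SE 0.26; edgeR adjusted p = 0.0160), and it missed the threshold without 36 hpf TCDD replicate 2, without 60 hpf TCDD replicate 1 and without both TCDD libraries numbered 3 (adjusted p = 0.0587, 0.0640 and 0.0582).

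miR-301a, a member of the second neighbourhood, varied more. Its levels were 11948, 8553 and 5455 CPM in the 36 hpf DMSO libraries and 4138, 5514 and 4864 CPM at 60 hpf. In TCDD embryos they were 5873, 12230 and 20189 CPM at 36 hpf and 3656, 4468 and 5045 CPM at 60 hpf. The DMSO groups overlapped narrowly and the TCDD groups did not. The log2 fold change was -0.84 (SE 0.43; edgeR adjusted p = 0.217) in DMSO embryos and -1.54 (SE 0.43; edgeR adjusted p = 0.0278) in TCDD embryos. The change in TCDD embryos differed from that in DMSO embryos by -0.70 (SE 0.60, edgeR adjusted p = 0.994). A difference between treatments was thus not called. The TCDD call was lost without 36 hpf TCDD replicate 2 or any 60 hpf TCDD library (adjusted p from 0.0506 to 0.0984). It was also lost without 36 hpf TCDD replicate 3, its highest library, where the log2 fold change was -1.10 (edgeR adjusted p = 0.0798), and without both TCDD libraries numbered 3 it was -1.16 (adjusted p = 0.114).

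miR-454b*, the minor arm of a hairpin beside that of miR-301b, fell as well. miR-454b* measured 440, 515 and 687 CPM at 36 hpf and 134, 203 and 290 CPM at 60 hpf in DMSO embryos. In TCDD embryos it measured 711, 652 and 1219 CPM at 36 hpf and 300.2, 421 and 395 CPM at 60 hpf. No library at 60 hpf overlapped with one at 36 hpf of the same treatment. On the log2 scale the fold change was -1.39 (SE 0.37; edgeR adjusted p = 0.0228) in DMSO embryos and -1.21 (SE 0.37; edgeR adjusted p = 0.0375) in TCDD embryos. The call in DMSO embryos was lost without 36 hpf DMSO replicate 3, 60 hpf DMSO replicate 1 or 60 hpf DMSO replicate 2 (adjusted p = 0.0623, 0.0781 and 0.0746). In TCDD embryos 12 of 25 alternatives kept it, with adjusted p up to 0.172.

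In TCDD embryos the 4 falling arms were 4 of 16, against 8.78% of all features called lower, 12.7% called higher and 21.5% called in either direction. The fold change was below 0 for 13 of 16 arms, against 47.6% of all features, with medians of -0.55 and 0.08. Without adjustment, 4 of 16 had a p under 0.05, against 34.6% of all features. The groups did not overlap for 6 of the 16 arms, all lower at 60 hpf, against 17.6% of all features; in DMSO embryos it was 5 of 16 against 17.1%. The calls in TCDD embryos depended on single libraries and on scaling: 16 of 25 alternatives kept that of miR-301a, 19 that of miR-301b and 20 that of miR-301c. Total count scaling, which moved the median of all features in this comparison from 0.08 to 0.53, left 0 of them, with fold changes of -0.47 for miR-301b, -0.58 for miR-301c and -1.06 for miR-301a, while calls over all features went from 88 to 110. No family arm was called without 36 hpf TCDD replicate 2 or without 60 hpf TCDD replicate 1, 1 was called without 60 hpf TCDD replicate 2, and 2 without TCDD replicate 3 of 36 hpf or of 60 hpf. In TCDD embryos, libraries of the same replicate number correlated between the times in their deviations from group means (r of 0.25, 0.26 and 0.42). No correlation was computed between libraries of unlike numbers, so these values lack a comparison. With the number as a block 3 arms were called (miR-301a missed, edgeR adjusted p = 0.0539). With number terms in the TCDD libraries alone, 5 were called, the fifth being miR-130c (log2 fold change -1.36, edgeR adjusted p = 0.0287).

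The major arms miR-130a, miR-130b and miR-130c did not pass the test in either treatment. miR-130b measured 43414, 66788 and 57844 CPM at 36 hpf and 37671, 37249 and 49406 CPM at 60 hpf in DMSO embryos. In TCDD embryos it measured 44172, 66174 and 119753 CPM at 36 hpf and 36396, 47201 and 51147 CPM at 60 hpf. The groups overlapped in both treatments, and the log2 fold change of miR-130b was -0.43 (SE 0.35; edgeR adjusted p = 0.437) in DMSO and -0.77 (SE 0.35; edgeR adjusted p = 0.146) in TCDD embryos. The DMSO value was -0.73 (adjusted p = 0.263) without 36 hpf DMSO replicate 1. The TCDD value was -0.34 (adjusted p = 0.477) without 36 hpf TCDD replicate 3, -0.40 (adjusted p = 0.423) without both TCDD libraries numbered 3, and -1.10, a call (edgeR adjusted p = 0.0399), without 36 hpf TCDD replicate 1. Its minor arm miR-130b* measured 11691, 13700 and 17308 CPM at 36 hpf and 8721, 5355 and 10395 CPM at 60 hpf in DMSO embryos, without overlap (log2 fold change -0.80, SE 0.29; edgeR adjusted p = 0.0811). This arm lay near the threshold. It passed under RLE scaling, upper quartile scaling, the stricter filter and DESeq2 (adjusted p = 0.0434, 0.0418, 0.0404 and 0.00152) and with 36 hpf DMSO replicate 1 left out (0.0434) or 36 hpf TCDD replicate 3 left out (0.0468). It missed under the other alternatives, among them total count scaling, no filter, limma-voom and the replicate block (adjusted p = 0.103, 0.0706, 0.0553 and 0.0731), and up to 0.214 without 60 hpf DMSO replicate 2.

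miR-130a and miR-130c, which each have a hairpin beside one of miR-301a or miR-301c, kept similar group means in DMSO embryos. miR-130a averaged 1231 CPM ± 333 (SD, n = 3) at 36 hpf and 1357 CPM ± 292 at 60 hpf in DMSO embryos, and 1251 CPM ± 554 and 1053 CPM ± 505 in TCDD embryos. miR-130c averaged 35734 CPM ± 11079 at 36 hpf and 34885 CPM ± 5636 at 60 hpf in DMSO embryos, and 37330 CPM ± 21363 and 17664 CPM ± 14657 in TCDD embryos. Its log2 fold change in TCDD embryos was -1.08 (SE 0.63; edgeR adjusted p = 0.246), and leaving out 1 library moved it from -0.46 (without 36 hpf TCDD replicate 2) to -1.94 (without 60 hpf TCDD replicate 2), with -0.62 without 60 hpf TCDD replicate 3.

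Ratios between paralogs that have a hairpin in the same neighbourhood were taken within libraries. The count of miR-130c also covers its hairpin in the third neighbourhood, and that of miR-130a a hairpin not found in the annotation. Ratios to these names are therefore not ratios within 1 neighbourhood alone. Over all libraries the ratio of miR-301a to miR-130a ran from 3.98 to 19.5 at 36 hpf and from 2.87 to 9.18 at 60 hpf. The times overlapped in DMSO embryos too (lowest 3.98 at 36 hpf, highest 4.09 at 60 hpf). In DMSO embryos the ratio of miR-301c to miR-130c was 1.32, 0.847 and 1.41 at 36 hpf and 0.554, 0.580 and 0.519 at 60 hpf, without overlap. The ratio in TCDD embryos was 0.998, 0.699 and 2.03 at 36 hpf and 1.10, 0.578 and 4.58 at 60 hpf, and the times overlapped. The ratio of miR-301b to miR-130b was 0.0408, 0.0231 and 0.0273 at 36 hpf and 0.0157, 0.0182 and 0.0146 at 60 hpf in DMSO embryos, again without overlap. The TCDD libraries had 0.0278, 0.0221 and 0.00910 at 36 hpf and 0.0149, 0.0141 and 0.0149 at 60 hpf, where 36 hpf TCDD replicate 3 lay below all 60 hpf libraries. The difference between paralogs was not tested.

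**Figure D2:**
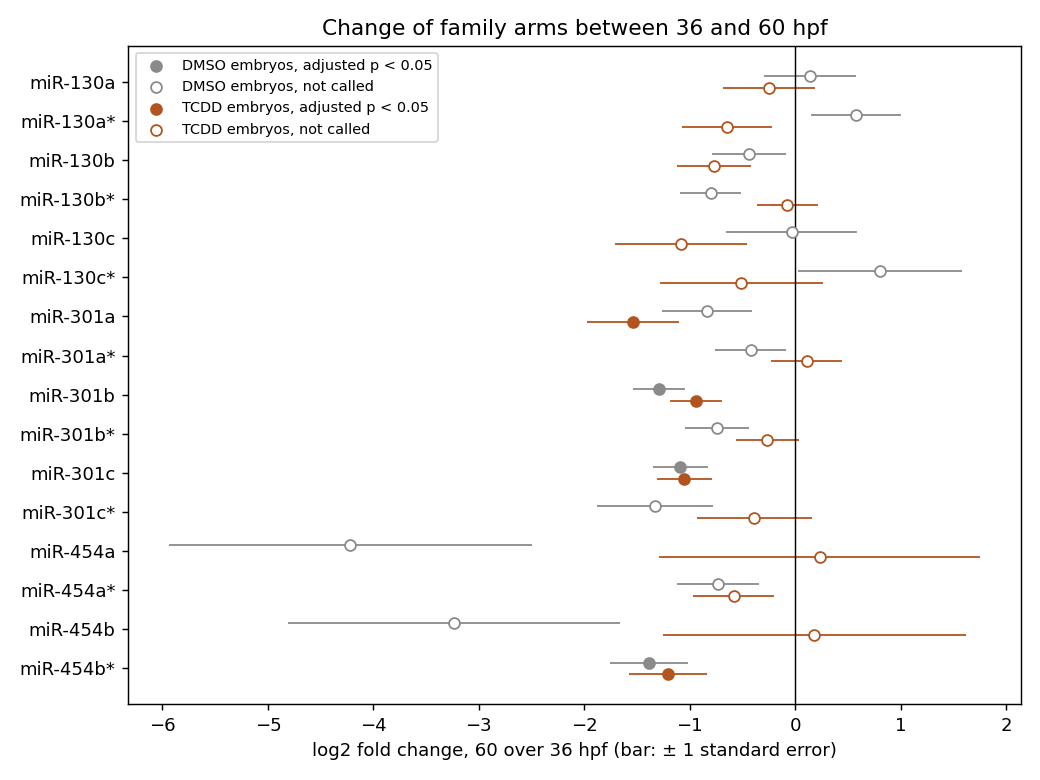
Log2 fold change from 36 to 60 hpf for the 16 arms in DMSO embryos (grey) and TCDD embryos (brown), with bars of 1 standard error; filled points have an adjusted p under 0.05. The filled points are miR-301b, miR-301c and miR-454b* in both treatments and miR-301a in TCDD embryos, all left of 0, and the widest bars belong to the major arms miR-454a and miR-454b.

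The comparison of TCDD with DMSO, the question in the series title, gave no called change in any family arm at either time. At 36 hpf edgeR called 0 of the 16 arms and 0% of the 410 features, and DESeq2 and limma-voom called 0 as well. At an unadjusted p under 0.05 edgeR named 17 features (4.15%), none from the family. The log2 fold changes ran from -1.85 (miR-454a, SE 1.57) to 1.24 (miR-130c*, SE 0.79), with a median of 0.06 over the family and 0.05 over all features, and 5 of 16 were below 0, against 45.4% of all features. Both ends moved when a single library was left out. The miR-454a value was -0.12 without 36 hpf DMSO replicate 3 and -3.81 without 36 hpf TCDD replicate 3. That of miR-130c* was 0.82 without 36 hpf DMSO replicate 2 and 1.93 without 36 hpf DMSO replicate 3.

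At 36 hpf the groups did not overlap for 3 arms. miR-130a* was higher with 784, 788 and 1177 CPM in TCDD against 705, 569 and 230 CPM in DMSO libraries (log2 fold change 0.87, SE 0.43, and 0.53 without 36 hpf DMSO replicate 3). miR-130c* was also higher, with 392, 478 and 319 CPM in TCDD against 131, 81.0 and 291 CPM in DMSO libraries. These were 2 of 16 arms, against 3.41% of all features. miR-301b was lower in TCDD libraries, in the values given above (log2 fold change -0.37, SE 0.24, and -0.57 without 36 hpf TCDD replicate 2), and was the single arm of 16 on that side, against 1.95% of all features. All had an edgeR adjusted p of 0.996.

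At 60 hpf again 0 of the 16 arms were called by edgeR, against 1 of the 410 features (0.244%). At an unadjusted p under 0.05 there were 28 features (6.83%), among them miR-454b and miR-454b*. limma-voom called 0 arms, and DESeq2 called 1 of 16, miR-454b, and 10 of 410 features (log2 fold change 4.28, adjusted p = 0.0437). Groups did not overlap for 5 of the 16 arms, all higher in TCDD embryos, against 10.7% of all features: miR-130b*, miR-301a*, miR-301b*, miR-454b and miR-454b*. Of these, 4 were minor arms, and the share without overlap was not counted over all tested minor arms alone.

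miR-454b had the largest fold change of the family. It measured 141, 688 and 2800 CPM in the 60 hpf TCDD libraries and 24.9, 134 and 23.0 CPM in the DMSO libraries. The lowest TCDD library was just above the highest DMSO library. Its log2 fold change was 4.32 (SE 1.65; edgeR adjusted p = 0.589), and 2.78 (SE 1.54; adjusted p = 0.781) without 60 hpf TCDD replicate 3. Averaged over both times it was 2.61 (SE 1.08; edgeR adjusted p = 0.884), and it was 3.42 (SE 2.09; adjusted p = 0.965) for the difference of the effect between times. Without both TCDD libraries numbered 3 the average was 0.87, and the difference ran from 1.35 (without 36 hpf DMSO replicate 1) to 5.20 (without 36 hpf TCDD replicate 3), with 1.89 without 60 hpf TCDD replicate 3. The average was 1.65 without 36 hpf TCDD replicate 3.

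The minor arms without overlap at 60 hpf had smaller fold changes and smaller SEs than miR-454b. miR-454b* measured 300.2, 421 and 395 CPM in TCDD against 134, 203 and 290 CPM in DMSO libraries, which is 0.83 on the log2 scale (SE 0.36; edgeR adjusted p = 0.694). miR-130b* measured 12747, 12178 and 11977 CPM against 8721, 5355 and 10395 CPM (0.59, SE 0.29; edgeR adjusted p = 0.780), and 0.38 remained without 60 hpf DMSO replicate 2. miR-301b* measured 1055, 845 and 1068 CPM against 773, 517 and 625 CPM (0.63, SE 0.30; edgeR adjusted p = 0.732). None of these passed the test, nor did miR-301a* (0.37, SE 0.33). The groups overlapped for miR-301c* (0.96, SE 0.55), miR-454a* (0.20, SE 0.38), miR-130c* (-0.07, SE 0.77) and miR-130a* (-0.35, SE 0.42). The fold change was above 0 for 6 of the 8 minor arms, and the share above 0 over all tested minor arms was not counted. It was below 0 for 7 of all 16 arms, against 50% of all features. The 8 minor arms had a median of 0.48, beside a median of 0.11 over all tested minor arms and -0.12 over all tested major arms. Total count scaling moved the median of all features at 60 hpf from 0.00 to 0.31, and upper quartile scaling to 0.26, so the size of these differences depends on the scaling.

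miR-130c was below all DMSO libraries in 2 of 3 TCDD libraries at 60 hpf. It measured 15289, 33363 and 4339 CPM in TCDD libraries and 29568, 34293 and 40793 CPM in DMSO libraries. TCDD replicate 2 lay within the DMSO range. The log2 fold change of miR-130c was -0.98 (SE 0.63; edgeR adjusted p = 0.870), -0.52 (adjusted p = 0.962) without 60 hpf TCDD replicate 3 and -1.77 (adjusted p = 0.516) without 60 hpf TCDD replicate 2. The library 60 hpf TCDD replicate 3 was also the lowest of the 12 for miR-130a, at 549 CPM, and the highest for miR-454b. Its depth was the greatest of the series. The shallowest library, 36 hpf TCDD replicate 3, was likewise the lowest of its group for miR-130c (22164 CPM) and the highest for miR-454b (2653 CPM). For miR-130a it lay between the other libraries of its group (1036 CPM). The part of depth in these values was not tested.

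Whether TCDD acted differently at 60 than at 36 hpf was tested as an interaction: edgeR called 0 of the 16 arms and 0% of features, DESeq2 0 arms (6 features) and limma-voom 0. At an unadjusted p under 0.05 there were 19 features (4.63%) and none of the family, and 6 of 16 arms were below 0, against 53.7% of all features. The difference was 4.45 (log2, SE 2.24; edgeR adjusted p = 0.871) for miR-454a (2.64 without 36 hpf DMSO replicate 3 and 2.36 without 60 hpf TCDD replicate 3) and -1.23 (SE 0.60; adjusted p = 0.871) for miR-130a*. Averaged over both times edgeR called 0 arms, against 0.244% of features, and DESeq2 and limma-voom called 0 arms too. An unadjusted p under 0.05 was found for 2 arms, miR-454b and miR-454b*, against 4.88% of features, and 4 of 16 arms were below 0, against 49.5%.

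The major arms of miR-454 were the least steady of the family. miR-454a measured 366, 13.6 and 1437 CPM in the 36 hpf DMSO libraries and 21.6, 71.1 and 418 CPM in the 36 hpf TCDD libraries. At 60 hpf it measured 12.6, 62.1 and 23.4 CPM in DMSO and 15.4, 76.2 and 499 CPM in TCDD libraries. Libraries of 1 group thus differed up to 105-fold. miR-454b measured 1457, 56.1 and 204 CPM in the 36 hpf DMSO libraries and 86.3, 471 and 2653 CPM in the 36 hpf TCDD libraries.

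The pooled SD within groups of log2(CPM + 1) was 2.42 for miR-454a, 4th widest of 410 features, and 2.13 for miR-454b, 13th widest. The median over all features was 0.60. The minor arms of the same hairpins had SDs of 0.44 for miR-454a* and 0.42 for miR-454b*. With this spread, log2 fold changes of -4.22 (miR-454a, SE 1.72) and -3.24 (miR-454b, SE 1.57) between 36 and 60 hpf in DMSO embryos did not pass edgeR's test (adjusted p = 0.122 and 0.196); DESeq2 called both (adjusted p = 0.00822 and 0.0436). In edgeR each value shrank most without 1 library. miR-454a was at -2.48 (edgeR adjusted p = 0.354) without 36 hpf DMSO replicate 3, and miR-454b at -1.24 (edgeR adjusted p = 0.638) without 36 hpf DMSO replicate 1. DESeq2 was not run with a library left out. The major arms were high together in some libraries: the correlation of log2(CPM + 1) over the 12 libraries was 0.75 between miR-454a and miR-454b, and 0.87 between miR-454a* and miR-454b*. Between the arms of 1 hairpin it was 0.40 for miR-454a and 0.53 for miR-454b.

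**Figure D3:**
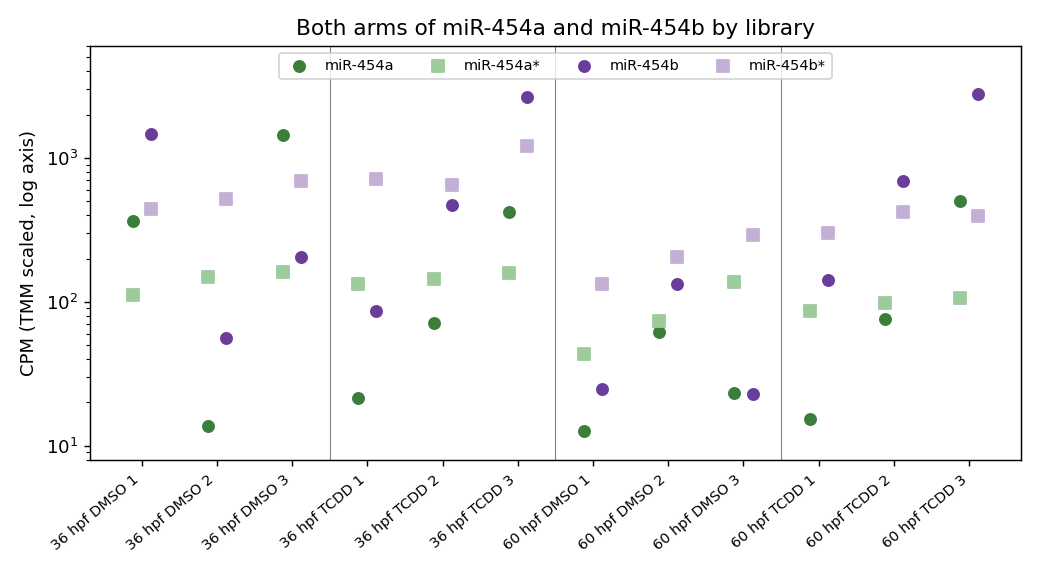
Levels of both arms of miR-454a (green) and miR-454b (purple) in each of the 12 libraries, in CPM on a log axis, with circles for major and squares for minor arms. The squares spread less than the circles within groups, from 43.3 to 160 CPM for miR-454a* over all libraries, and the circles run from 12.6 to 1437 CPM for miR-454a.

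Which arm of a hairpin was the more abundant differed between members. The minor arm took 0.132% to 2.29% of both arms in miR-130c, 0.244% to 2.19% in miR-301a and 0.746% to 4.25% in miR-301c. It took 11.4% to 25.9% in miR-130b and 14.4% to 57.8% in miR-130a. Over the 140 hairpin names with both arms tested, the median of the mean share was 9.71%, so the family held hairpins on either side of it. The mean share was at or above 30% in 43 of the 140.

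In miR-301b both arms were nearly balanced. The minor arm took a mean of 49.1% over the 12 libraries and was the more abundant arm in 5 of them. Its share was 39.3% ± 7.41 (SD, n = 3) in 36 hpf DMSO, 48.3% ± 9.39 in 36 hpf TCDD, 48.8% ± 7.01 in 60 hpf DMSO and 60.1% ± 5.29 in 60 hpf TCDD libraries. All 3 libraries of the last group had more minor than major arm, with shares from 56.0% to 66.1%. At 60 hpf the log2 ratio of minor to major arm of miR-301b differed by 0.67 between TCDD and DMSO libraries (SE 0.47, limma adjusted p = 0.661). The median of this difference over all 140 hairpins was 0.40. In miR-454a and miR-454b the minor arm was the more abundant in 8 of 12 libraries each, with shares from 10.02% to 91.6% and from 12.4% to 92.6%.

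The log2 ratio of minor to major arm was fitted with limma over the 140 hairpins. No comparison gave a called change: 0 of the 8 family hairpins and 0% of all 140 passed in TCDD against DMSO at 36 hpf or 60 hpf and in 60 against 36 hpf in DMSO or TCDD embryos. At an unadjusted p under 0.05 there were 5 (3.57%), 5 (3.57%), 7 (5%) and 18 (12.9%) hairpins in these 4 comparisons, none from the family. At 60 hpf the ratio in TCDD against DMSO libraries was -3.04 (log2, SE 1.47; limma adjusted p = 0.620) for miR-454b and 1.68 (SE 0.93; limma adjusted p = 0.620) for miR-130c (0.62 without 60 hpf DMSO replicate 2). For miR-301a from 36 to 60 hpf in TCDD embryos it was 1.53 (SE 0.71; limma adjusted p = 0.395, and 0.86 without 36 hpf TCDD replicate 3), as the major arm fell and the minor arm stayed between 49.4 and 93.2 CPM.

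**Figure D4:**
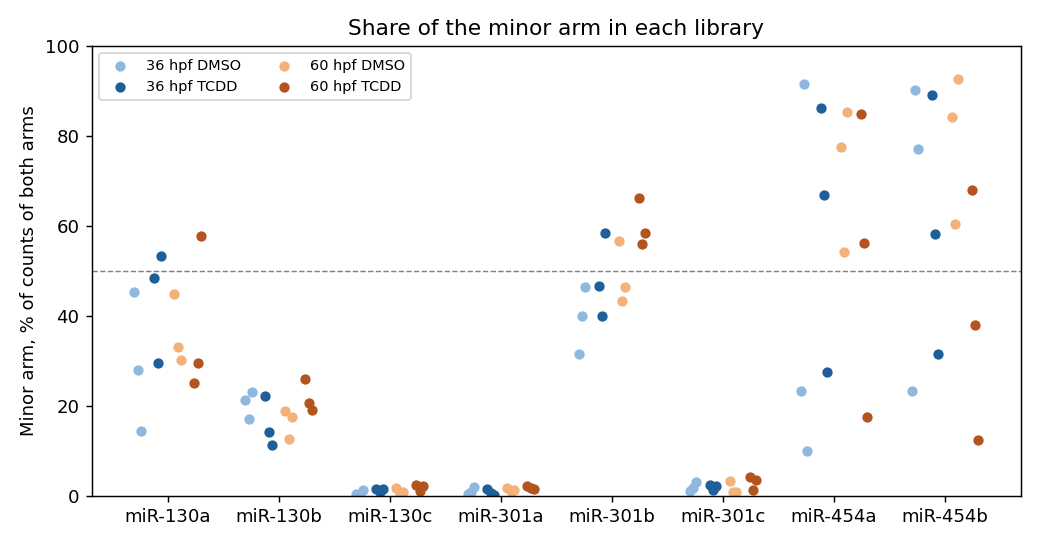
Share of the minor arm in the counts of both arms, in percent, for each hairpin name; each point is 1 library, coloured by group, and the dashed line marks equal arms. miR-130c, miR-301a and miR-301c lie near 0, miR-301b lies around the line with all 3 points of 60 hpf TCDD above it, and miR-454a and miR-454b span most of the axis.

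Members differed in which others they followed across the 12 libraries; these correlations of log2(CPM + 1) are descriptions, as the points share the same 12 libraries and their scaling. Among the miR-301 major arms r was 0.92 for miR-301b and miR-301c, 0.90 for miR-301a and miR-301c, and 0.68 for miR-301a and miR-301b. Across names, miR-130b and miR-301a had r = 0.78. The minor arms miR-301b* and miR-301c* had r = 0.92, and miR-130b* and miR-301b*, whose hairpins are neighbours, 0.88. miR-130a and miR-130c had r = 0.79. The arms of miR-130b had r = 0.55 and those of miR-130c 0.17.

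Outside the family, among 216 features with a mean of 100 CPM or more, the closest to miR-301c were miR-2190 (r = 0.97), miR-206-2* (0.92) and miR-363* (0.90). The closest to miR-130b were miR-26a-2* (0.89), miR-184* (0.88) and miR-150 (0.84). The closest to miR-130c were miR-19b (0.91), miR-19a (0.89) and miR-153c (0.88). The last 3 were weaker without 60 hpf TCDD replicate 3, with r of 0.64, 0.61 and 0.76 over 11 libraries. For the closest features of miR-301c and miR-130b r moved by no more than 0.01.

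The miRNAs whose seed resembles that of the family were counted from short lists. Of 6 with a shifted seed (miR-19a, miR-19b, miR-19c, miR-19d, miR-148 and miR-152), none was called by edgeR in any comparison but 60 against 36 hpf in TCDD embryos. There 3 of 6 fell, against 8.78% of all features called lower, with log2 fold changes of -2.37 for miR-19a (edgeR adjusted p = 0.0160), -2.71 for miR-19c (adjusted p = 0.00413) and -2.82 for miR-19d (adjusted p = 0.0235). miR-19b was at -2.14 (edgeR adjusted p = 0.0662), and miR-148 and miR-152 were at -0.07 and -0.52 (edgeR adjusted p = 0.948 and 0.338). The median of the 6 was -2.25, beside 0.08 over all features, and it reflected the miR-19 members. Their 60 hpf TCDD group holds the library without which r of miR-130c and miR-19b fell from 0.91 to 0.64. Of 4 that share a core further along the seed (miR-17a, miR-20a, miR-20b and miR-93), none was called in any of the 6 comparisons. Their median log2 fold change from 36 to 60 hpf was -0.35 in DMSO and -0.42 in TCDD embryos, beside 0.08 over all features in both.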

How the data were processed

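Libraries from whole zebrafish embryos were made with the SREK kit and read on a SOLiD V3 system, per the labels' protocols. The authors deposited 1 table per library, with a whole-number count for each feature. edgeR is named without version or role, per the submitters' processing notes; no source used here names the aligner, the miRNA annotation, the counting rule or the build. Rows with Ensembl transcript identifiers (1797 rows, 1.20% to 5.35% of counts) were left out of library sizes and tests. Rows of 1 name and arm were merged where a copy's total was at least 0.8 of the largest, and counted once by the largest. A feature missing from a table was taken as 0.

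Counts were tested with edgeR 4.0.16 in R 4.3.3 (filterByExpr with minimum count 10 and minimum total 15, TMM, robust glmQLFit, glmQLFTest) in a model of 4 group means over all 12 libraries, with Benjamini-Hochberg adjustment over 410 features and a threshold of 0.05. The SE is the log2 fold change over the square root of F. Arm ratios, log2((minor + 0.5)/(major + 0.5)), were tested with limma 3.58.1 over 140 hairpins. Both scripts were tested on simulated data. Depth was 459634 to 4210840 miRNA counts, and the lowest count of a family arm was 17. Alternatives were other scalings and filters, DESeq2 1.42.0, limma-voom, other treatment of copies, fewer libraries and replicate blocks.

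Replicate numbers, taken from the labels, were checked for pairing by correlating deviations from group means between libraries of the same number. No such correlation was computed for libraries of unlike numbers. The values were 0.25, 0.26 and 0.42 between the TCDD groups of both times, all above 0.1. Between the other groups values ran from -0.23 to 0.13. The main model held no term for the replicate number, so its p-values in TCDD embryos leave a pairing out. Only the alternatives with replicate blocks took the number into account.

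All members were named; for likeness, the 3 features outside the family closest to each of the 3 most abundant major arms; otherwise only listed miRNAs. Members and lists were chosen with earlier results of these data known.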

Additional observations from a re-analysis of the deposited data

How the results depend on the processing

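Across the alternatives, 0 of the 7 called values changed sign, and 36 of all 96 fold changes changed sign in at least 1. miR-301b in DMSO embryos was called in 25 of 25 alternatives (adjusted p up to 0.0305). From 36 to 60 hpf DESeq2 called 8 arms in DMSO embryos (120 of 410 features, against 75 in edgeR), and at 60 hpf 1 arm in TCDD against DMSO (10 features, against 1). In TCDD embryos the 4 calls became 2 under upper quartile scaling, 0 under total count scaling, 0 with only the groups compared in the fit and 1 with both TCDD libraries numbered 3 left out, a setting chosen after seeing the data. Leaving out 1 library at a time gave 2 to 4 calls in DMSO and 0 to 5 in TCDD embryos. With the replicate block, 3 arms were called in each, and 0 in the comparisons of TCDD with DMSO and in their difference; number terms in the TCDD libraries alone, also chosen after seeing the data, gave 5 in TCDD embryos. Why these counts moved was not tested. The lowest counts were 17 for miR-454a and 20 for miR-301a*.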
